A study of Rattus norvegicus with 18 samples.

Results

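Synovial lining macrophages form a layer at the surface of the joint cavity, and 6 genes that mark these cells or serve their clearance of dying cells were followed here in a rat model of knee osteoarthritis (OA). The genes were chosen by name: Vsig4, Cx3cr1, F11r, Tjp1, Axl and Mertk, 6 of the 30643 genes in the expression tables. Each symbol matched a single gene in both tables, and all 6 passed the filter on low expression. The choice used no threshold on a measured value, but it was made with earlier results of these data known, so the differences between OA and sham are given as a description and the p-values as readings from a fit over all genes.

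RNA was sequenced from cells of the knee synovium of male, wild type Sprague Dawley rats that had surgery at 12 weeks of age. In OA animals the anterior cruciate ligament and the medial meniscotibial ligament were cut after an arthrotomy, whereas sham animals had the arthrotomy alone, so every library comes from an operated joint. Tissue was taken 4 or 12 weeks after surgery, digested, and enriched with magnetic beads for CD11b/c, a surface integrin of myeloid cells. There were 5 OA and 5 sham libraries at 4-weeks, each a pool of 4 rats, and 4 OA and 4 sham libraries at 12-weeks, each a pool of 3 rats. Pooling hides the spread between single animals, and the bead enrichment does not separate lining from sublining macrophages.

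In background, lining macrophages are held together by tight junction proteins and form a barrier between the joint cavity and the tissue beneath it. They are known to express Cx3cr1 (ENSRNOG00000018509), the receptor for the chemokine fractalkine, and Vsig4 (ENSRNOG00000038132), a complement receptor that binds fragments of C3. F11r (ENSRNOG00000004414) encodes junctional adhesion molecule A, and Tjp1 (ENSRNOG00000011077) encodes ZO-1, the scaffold that anchors tight junctions to the cytoskeleton. Both junction genes are also used by endothelium and epithelium. Axl (ENSRNOG00000020716) and Mertk (ENSRNOG00000017319) are TAM receptor kinases, which recognise dying cells through the bridging ligands Gas6 and protein S and drive their uptake, called efferocytosis.

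The sequence upstream of the transcription start is shown for Vsig4 and Cx3cr1, the genes with the largest differences between OA and sham, and for F11r, a junction gene whose level in OA lay below sham. Each is the 250 bases before the RefSeq start in the GRCr8 assembly, which is not the assembly the reads were aligned to, and is written 5′ to 3′ on the strand of the gene. The windows are chrX:65179709-65179958 (minus strand) for Vsig4, chr8:128677067-128677316 (minus strand) for Cx3cr1 and chr13:86405979-86406228 (plus strand) for F11r. Capitals mark matches to motifs of myeloid and stress-responsive factors searched on both strands.
Vsig4: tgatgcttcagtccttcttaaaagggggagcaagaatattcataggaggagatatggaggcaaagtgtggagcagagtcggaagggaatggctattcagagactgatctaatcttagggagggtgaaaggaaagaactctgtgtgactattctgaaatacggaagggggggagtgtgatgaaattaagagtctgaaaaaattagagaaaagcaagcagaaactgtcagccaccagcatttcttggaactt
Cx3cr1: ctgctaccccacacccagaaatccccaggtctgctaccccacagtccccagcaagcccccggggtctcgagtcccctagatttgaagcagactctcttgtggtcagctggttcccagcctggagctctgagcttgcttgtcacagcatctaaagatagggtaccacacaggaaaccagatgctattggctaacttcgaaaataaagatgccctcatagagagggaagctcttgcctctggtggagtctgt
F11r: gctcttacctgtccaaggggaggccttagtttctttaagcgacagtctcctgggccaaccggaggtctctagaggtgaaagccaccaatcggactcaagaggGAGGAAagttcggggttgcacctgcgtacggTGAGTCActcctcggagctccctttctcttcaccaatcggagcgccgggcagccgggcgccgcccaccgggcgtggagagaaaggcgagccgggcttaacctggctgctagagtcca
Motif letters were GAGGAA or TTCCTC for the PU.1-type ETS core, TGACTCA or TGAGTCA for AP-1, and TGCTGA or TCAGCA for the MAF core, whose end can overlap an AP-1 site. These were found in 23.3%, 4.05% and 15.1% of 33469 promoter windows of the same length. Vsig4 and Cx3cr1 held none of them in this window. F11r held the ETS letters starting at position -148 and the AP-1 letters at -117 from the start, and Axl held the ETS letters at -190. Tjp1 and Mertk held none. The windows of F11r and Mertk carried 17 and 22 CpG dinucleotides, those of Vsig4, Cx3cr1, Tjp1 and Axl between 1 and 7, and the median over all windows was 5.

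Values are the authors' normalized reads, which are read counts divided by a size factor set within each time point. Behind them stood 4662344 to 18080503 reads per library, the lowest in sham replicate 3 at 4-weeks. A count of 3 reads, taken as the floor, equals 2.06 to 6.96 normalized reads at 4-weeks and 2.27 to 3.82 at 12-weeks, and covers counting error only. Every value of the 6 genes was above 650, so depth did not limit their detection. All 12 macrophage markers, Itgam, Cd68 and Csf1r among them, were detected. Markers of other cells were detected as well. The summed level of 10 endothelial markers ranged from 40190 to 54157 normalized reads at 4-weeks and from 40318 to 65211 at 12-weeks, and that of 9 synovial fibroblast markers from 59196 to 128515 and from 71497 to 126207. Sham replicate 3 at 12-weeks stood apart, with a mean log2 endothelial marker level of 11.42 against 10.93 to 10.99 in the other sham libraries. Some results of single genes are therefore also given without it. Differences in marker level are given with it included, beside the levels of the libraries. Neutrophils, which also carry CD11b, left an uneven signal. The summed level of 11 neutrophil markers ranged from 1230 to 15175 normalized reads in OA at 4-weeks, with a median of 1407, and OA replicates 1 and 3 had the highest mean log2 levels (9.94 and 10.02, against 6.20 to 6.58 in the other OA libraries). The sum was 1677 to 5063 in sham at 4-weeks, and 1297 to 4102 in OA and 1549 to 5658 in sham at 12-weeks. Across the 18 libraries, as deviations from group means, the members' r with the neutrophil markers lay between -0.37 and 0.43, none with an adjusted permutation p-value under 0.05. Within weeks, Mertk had r = 0.27 over 10 libraries at 4-weeks and 0.93 over 8 libraries at 12-weeks. The within-week r of the other members lay between -0.47 and 0.54. The part of neutrophils in the values of the 6 genes was not otherwise tested. Levels are not compared between genes, because no transcript lengths were used. In bulk RNA, more cells of a type and more RNA per cell cannot be told apart.

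**Figure D1:**
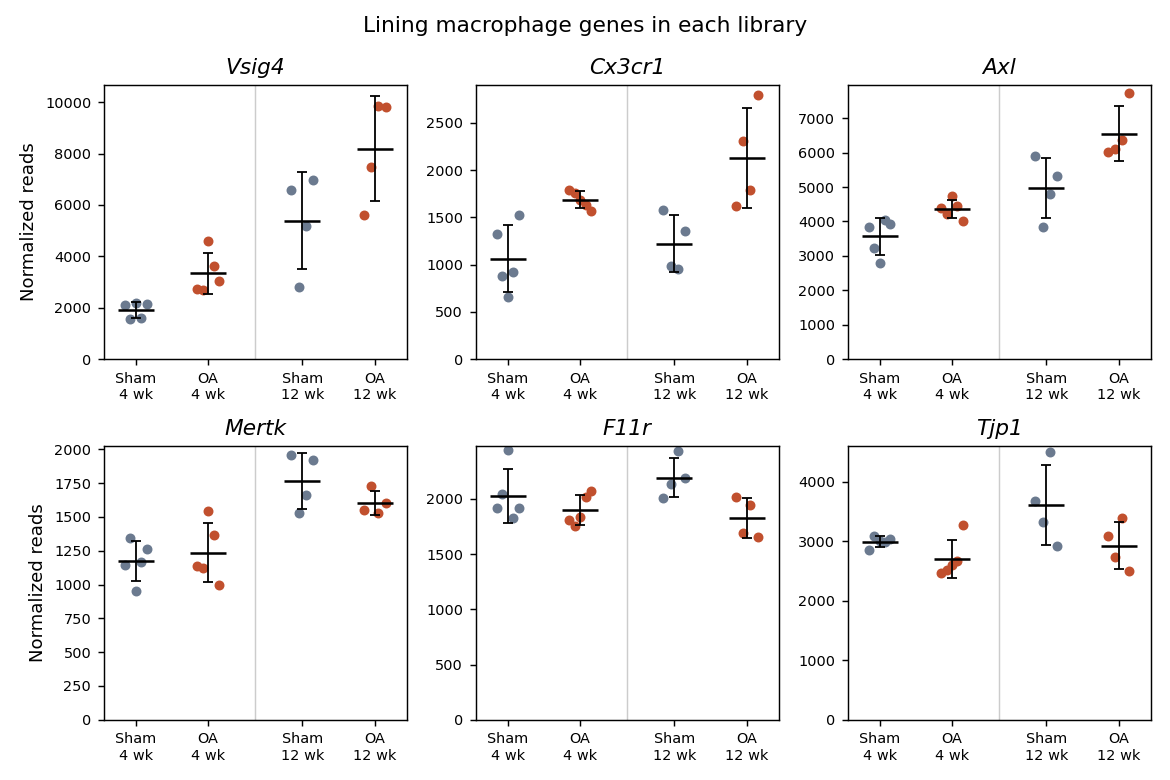
Normalized reads of the 6 genes (vertical axes, linear from 0) in each of the 18 libraries, with sham in grey and OA in orange; horizontal lines are group means and bars are SD (n = 5 per group at 4 weeks and n = 4 at 12 weeks). Each week was normalized separately, so levels should be compared within a week. Every OA library of Cx3cr1 lies above every sham library at both weeks, whereas the OA and sham points of F11r, Tjp1 and Mertk overlap at both.

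Vsig4, Cx3cr1 and Axl had higher means in OA at both weeks, F11r and Tjp1 had lower means at both, and Mertk lay close to sham. The log2 fold changes at 4-weeks and 12-weeks were 0.79 and 0.65 for Vsig4, 0.73 and 0.80 for Cx3cr1, and 0.30 and 0.41 for Axl. They were -0.09 and -0.26 for F11r, -0.16 and -0.29 for Tjp1, and 0.06 and -0.13 for Mertk. Fold differences given below are log2 fold changes of a fit turned back to the linear scale. They can therefore differ from the ratio of the means printed beside them. A gene was called when its adjusted p-value was under 0.05 and its log2 fold change was 0.5 or more in size. limma called 0 of the 6 at either week, and edgeR also called 0. Both tools called 0% of all genes tested (14861 at 4-weeks and 14666 at 12-weeks). At 12-weeks this background rested on sham replicate 3, since limma called 81 genes in a fit that omitted this library, 77 of them higher in OA, and 0 of the 6 members were among them (limma adjusted p = 0.197 for Cx3cr1). Without adjustment, 3 of the 6 had a limma p-value under 0.05 and were higher in OA at 4-weeks, among 1177 genes in all, and at 12-weeks 3 were higher and 1 lower, among 1814. DESeq2 called Vsig4 at 4-weeks, when it called 0.195% of genes, and Cx3cr1 at 12-weeks, when it called 0.675%. OA and sham did not overlap, with OA higher, in 2 of the 6 genes at each week, where this held for 1.18% of all genes at 4-weeks and 2.85% at 12-weeks.

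At 4-weeks, Vsig4 was measured at 2739, 2690, 4602, 3620 and 3054 normalized reads in the OA libraries and at 2104, 1568, 2175, 1600 and 2129 in the sham libraries. The lowest OA library exceeded the highest sham library. The OA mean was 3341 ± 796 (SD, n = 5) and the sham mean 1915 ± 304 (SD, n = 5), 1.73-fold apart (log2 0.79, SE 0.16, limma adjusted p = 0.346). The adjusted p-value was 0.00455 in DESeq2. At 12-weeks the OA libraries had 5597, 7475, 9842 and 9824 normalized reads and the sham libraries 6590, 2810, 5182 and 6984. The groups overlapped through OA replicate 1, while the other 3 OA libraries were above every sham library. Mean values of Vsig4 were 8184 ± 2052 (SD, n = 4) and 5391 ± 1887 (SD, n = 4), and the log2 fit gave a difference of 1.57-fold (log2 0.65, SE 0.28, limma adjusted p = 0.391). The low sham replicate 2 carried part of this difference, since without it the log2 fold change was 0.36, and without OA replicate 1 it was 0.82.

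Vsig4 also had the widest difference between weeks of the 6 genes. On a common scale, the reads recovered from both tables scaled to library size (CPM), Vsig4 was lowest in sham at 4-weeks at 164 ± 27.8 CPM (SD, n = 5). It was at 281 ± 66.1 CPM (SD, n = 5) in OA at 4-weeks, 398 ± 139 CPM (SD, n = 4) in sham at 12-weeks and 609 ± 154 CPM (SD, n = 4) in OA at 12-weeks. The middle groups in this order overlapped, with ranges of 225 to 384 and 207 to 515 CPM, and so did the last 2 groups, the range of the highest being 416 to 738 CPM. In sham, Vsig4 was 2.32-fold higher at 12-weeks than at 4-weeks (log2 1.22, SE 0.24, limma adjusted p = 0.0123) without overlap, as in 2.99% of genes. In OA, Vsig4 was 2.16-fold higher at 12-weeks (log2 1.11, SE 0.24, limma adjusted p = 0.0268), again without overlap, as in 5.7% of genes. Vsig4 was the single member called between weeks in either group, where 1.41% of genes were called in sham and 0.937% in OA. Single libraries decided both calls. Leaving out sham replicate 1 or 4 of 12-weeks raised the adjusted p-value of Vsig4 in limma to 0.0504 and 0.0576, and 7 of the 9 fits that each left out an OA library lost the OA call (0.0535 to 0.0978). Age, time since surgery, rats per pool and table all change between the weeks and cannot be told apart.

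Cx3cr1, the fractalkine receptor, was the member whose OA and sham libraries were separate at both weeks. At 4-weeks it was measured at 1789, 1761, 1680, 1637 and 1568 normalized reads in OA and at 1327, 876, 655, 922 and 1525 in sham. Its OA libraries were close together, and the sham libraries spread over a wider range below them. The mean of Cx3cr1 was 1687 ± 90.3 (SD, n = 5) for OA against 1061 ± 355 (SD, n = 5) for sham. The log2 fit gave a 1.66-fold difference (log2 0.73, SE 0.19, limma adjusted p = 0.403), and the DESeq2 adjusted p-value was 0.0721, short of the threshold. The shallow sham replicate 3 was the lowest, and without it the log2 fold change was 0.57. At 12-weeks Cx3cr1 had 1620, 2313, 1792 and 2796 normalized reads in OA and 1582, 989, 956 and 1351 in sham. The gap between the groups was narrow, 1620 against 1582. Means were 2130 ± 533 (SD, n = 4) and 1220 ± 301 (SD, n = 4), a 1.74-fold difference (log2 0.80, SE 0.20, limma adjusted p = 0.275, DESeq2 adjusted p = 0.0167).

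With the weeks fitted together on log2 CPM, Cx3cr1 rose 1.69-fold in OA (log2 0.76, SE 0.14, limma adjusted p = 0.0252). It was the single member called in that fit, which called 0.394% of 14732 genes, 48 higher and 10 lower. The number of calls in that fit, 58, ranged from 5 without OA replicate 4 of either week to 109 without sham replicate 4 of 4-weeks. Leaving out OA replicate 4 or sham replicate 2 of 4-weeks, or OA replicate 2, OA replicate 4 or sham replicate 2 of 12-weeks, ended the call, with adjusted p-values in limma up to 0.0697. Vsig4 missed the threshold on the adjusted p-value (log2 0.71, SE 0.17, limma adjusted p = 0.0526). Axl missed it too (log2 0.35, SE 0.08, limma adjusted p = 0.0562), and its fold change was also under the minimum of 0.5. The adjusted p-values in limma of the 3 remaining genes were 0.181 for Tjp1, 0.216 for F11r and 0.854 for Mertk. Cx3cr1 did not differ between weeks beyond its spread, at 90.1 ± 28.5 CPM (SD, n = 5) and 90.0 ± 21.8 CPM (SD, n = 4) in sham and at 142 ± 8.02 CPM (SD, n = 5) and 159 ± 40.5 CPM (SD, n = 4) in OA (log2 0.03 and 0.13, SE 0.20 for each). A test of the difference between weeks in the OA effect called 0 genes in limma, where 469 genes had p-values under 0.05 before adjustment. For the 6 members the adjusted p-values of that test were between 0.956 and 0.979, so no change of the OA effect between weeks was detected.

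**Figure D2:**
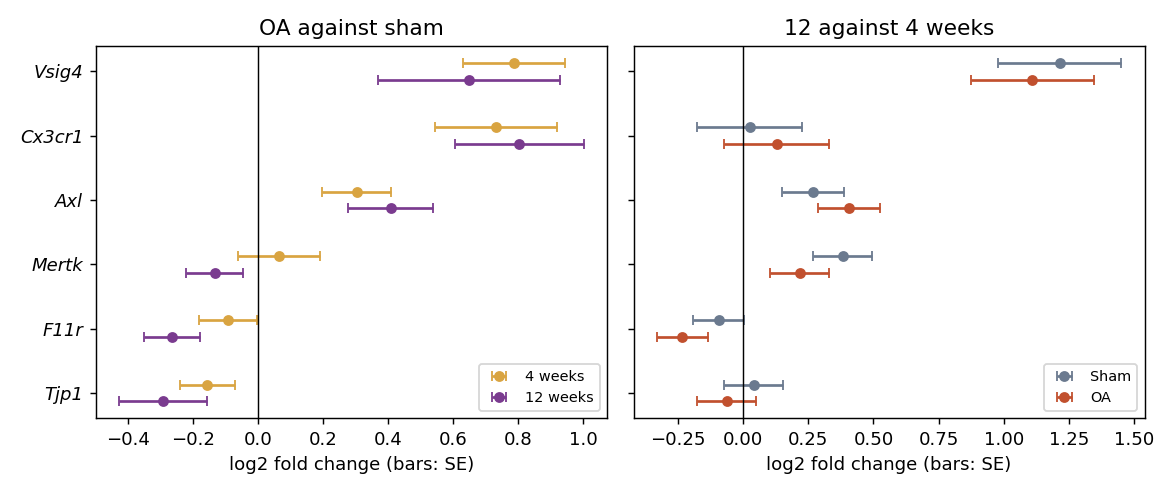
Log2 fold changes (horizontal axes) of the 6 genes with their SE as bars, for OA against sham at each week (left, log2 of normalized reads) and for 12 against 4 weeks in each surgery group (right, log2 CPM). Vsig4, Cx3cr1 and Axl lie to the right of 0 on the left panel at both weeks and F11r and Tjp1 to the left, and on the right panel Vsig4 stands apart at 1.22 in sham and 1.11 in OA.

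The genes that supply or cut fractalkine were described alongside its receptor. Cx3cl1, which encodes fractalkine, was measured at 408, 379, 411, 436 and 476 normalized reads in OA and at 492, 469, 557, 470 and 607 in sham at 4-weeks. The groups overlapped only through OA replicate 5, and the direction of Cx3cl1 was opposite to that of its receptor (log2 -0.29, SE 0.09, limma adjusted p = 0.543). At 12-weeks Cx3cl1 had 511, 588, 623 and 512 normalized reads in OA and 832, 550, 888 and 853 in sham (log2 -0.46, SE 0.15, limma adjusted p = 0.311). With both weeks together its log2 fold change was -0.38 (SE 0.09, limma adjusted p = 0.0515), short of the threshold. Ctss, a lysosomal protease known to release fractalkine, had log2 fold changes of 0.24 and 0.42, and the sheddases Adam10 and Adam17 had 0.22 and 0.11 at 4-weeks and -0.07 and 0.19 at 12-weeks. Of the 4 genes of this list, 0 were called by limma at either week. At an unadjusted p-value under 0.05, 1 was higher and 1 lower at 4-weeks, and 2 were higher and 1 lower at 12-weeks. All genes gave 609 higher and 568 lower of 14861 at 4-weeks, and 843 higher and 971 lower of 14666 at 12-weeks. The list's median log2 fold change was 0.16 at 4-weeks and 0.06 at 12-weeks, where the median of all genes was 0.03 and -0.01. C3, the source of the ligands of Vsig4, spread widely, at 707 ± 328 normalized reads (SD, n = 5) for OA and 777 ± 247 (SD, n = 5) for sham at 4-weeks.

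Axl was measured at 4381, 4205, 4752, 4449 and 4028 normalized reads in OA and at 3845, 3217, 2790, 4055 and 3916 in sham at 4-weeks. The groups overlapped because OA replicate 5 lay just under sham replicate 4, and the other 4 OA libraries were above every sham library. Means of Axl were 4363 ± 272 (SD, n = 5) and 3565 ± 539 (SD, n = 5), a 1.23-fold difference (log2 0.30, SE 0.11, limma adjusted p = 0.570). At 12-weeks Axl had 6008, 6105, 6375 and 7725 normalized reads in OA and 5916, 3853, 4800 and 5328 in sham. The groups were separate by a small gap, 6008 against 5916, with means of 6553 ± 796 (SD, n = 4) and 4974 ± 876 (SD, n = 4). The difference was 1.33-fold (log2 0.41, SE 0.13, limma adjusted p = 0.318). Between weeks, Axl was at 303 ± 39.9 CPM (SD, n = 5) and 367 ± 63.9 CPM (SD, n = 4) in sham, and at 367 ± 23.2 CPM (SD, n = 5) and 488 ± 62.7 CPM (SD, n = 4) in OA. OA at 12-weeks lay above OA at 4-weeks without overlap, though the test missed the threshold (log2 0.40, SE 0.12, limma adjusted p = 0.118).

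The synovial fibroblast markers also had a higher mean level in OA. limma called 0 of the 9 markers at either week, while at an unadjusted p-value under 0.05 there was 1 higher and 0 lower at 4-weeks and there were 5 higher and 1 lower at 12-weeks, where all genes gave 843 higher and 971 lower. With both weeks together limma called 1 of the 9 as higher in OA, Lum, a collagen-binding proteoglycan that is named here after its values were seen (log2 1.06, SE 0.20, limma adjusted p = 0.0252). The mean log2 level of the fibroblast markers was higher in OA by 0.28 at 4-weeks (exact permutation p = 0.127, two-sided, n = 5 per group) and by 0.33 at 12-weeks (exact permutation p = 0.0857, n = 4 per group). At 12-weeks the OA libraries had 12.11 to 12.49, sham replicate 3 had 12.29 and the other sham libraries had 11.76 to 11.88. Relative to the fibroblast markers within each library, the mean log2 level of Axl was higher in OA by 0.02 at 4-weeks and by 0.07 at 12-weeks. Relative to the macrophage markers Axl was higher by 0.18 and 0.28, and relative to the endothelial markers by 0.35 and 0.57. For Vsig4 the values relative to the macrophage markers were 0.67 and 0.52, and for Cx3cr1 they were 0.61 and 0.67. On this scale OA and sham overlapped at both weeks for Vsig4 and at 4-weeks for Cx3cr1, and Cx3cr1 stayed separate at 12-weeks. The share of all genes that separate relative to the macrophage markers was not computed. Relative to the fibroblast markers the values were 0.50 and 0.31 for Vsig4 and 0.45 and 0.47 for Cx3cr1, with overlap for both genes at both weeks. Across the 18 libraries, as deviations from group means, Axl and the fibroblast markers had r = 0.01 (adjusted permutation p = 0.968). Within weeks this r was 0.27 at 4-weeks and -0.34 at 12-weeks. The part of the fibroblast markers in the differences between OA and sham was not tested.

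Mertk, the other TAM receptor, showed no such difference. It was measured at 1138, 1123, 1545, 1362 and 999 normalized reads in OA and at 1146, 1341, 949, 1168 and 1263 in sham at 4-weeks. The groups were interleaved, with means of 1234 ± 218 (SD, n = 5) and 1173 ± 148 (SD, n = 5) and a log2 fold change of 0.06 (SE 0.13, limma adjusted p = 0.893). The sign of Mertk was not stable at 4-weeks, since it was -0.02 without OA replicate 3, -0.01 without sham replicate 3 and -0.06 when libraries were scaled to the macrophage markers. At 12-weeks Mertk had 1552, 1728, 1531 and 1604 normalized reads in OA and 1957, 1525, 1659 and 1924 in sham, where the sham range enclosed the OA range (log2 -0.13, SE 0.09, limma adjusted p = 0.539). Within libraries, the log2 ratio of Axl to Mertk averaged 1.84 ± 0.17 (SD, n = 5) for OA against 1.60 ± 0.21 (SD, n = 5) for sham at 4-weeks, with overlap. At 12-weeks the ratio averaged 2.02 ± 0.19 (SD, n = 4) for OA against 1.48 ± 0.11 (SD, n = 4) for sham, without overlap. This was not particular to Axl and Mertk, since the ratios of Cx3cr1 to Tjp1 and to F11r were also separate at 12-weeks. The ratios of Vsig4 to Tjp1, F11r to Tjp1 and Vsig4 to Cx3cr1 overlapped then. The share over all pairs of genes was not computed. In sham, Mertk ranged from 85.2 to 114 CPM at 4-weeks and from 112 to 144 CPM at 12-weeks, a difference short of the threshold (log2 0.38, SE 0.11, limma adjusted p = 0.0820).

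The ligands of the TAM receptors had higher means in OA but did not pass the test. Gas6 had log2 fold changes of 0.19 and 0.17 at 4-weeks and 12-weeks, and Pros1, which encodes protein S, had 0.33 and 0.11. Pros1 was measured at 1864, 1753, 1925, 1807 and 1830 normalized reads in OA and at 1436, 1662, 1191, 1419 and 1638 in sham at 4-weeks, without overlap (SE 0.09, limma adjusted p = 0.403). Tyro3, the remaining TAM receptor, was close to 120 normalized reads in every group, from 111 ± 5.52 (SD, n = 5) in OA at 4-weeks to 127 ± 17.5 (SD, n = 4) in OA at 12-weeks. Of the 5 genes for TAM ligands and shedding, 0 were called by limma within a week or with both weeks together. In each week 1 was higher and 0 lower at an unadjusted p-value under 0.05, Pros1 at 4-weeks and the sheddase Adam17, not a ligand, at 12-weeks. Adam10 and Adam17 were also counted in the fractalkine list above. For comparison, all genes gave 609 higher and 568 lower of 14861 at 4-weeks, and 843 higher and 971 lower of 14666 at 12-weeks. The list's median log2 fold change was 0.19 at 4-weeks and 0.11 at 12-weeks.

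A list of 32 efferocytosis genes also held Gas6, so it is not separate from the TAM list. Of its genes, 28 were tested at 4-weeks and 27 at 12-weeks. limma called 0 of them at either week. At an unadjusted p-value under 0.05, 3 were higher and 2 lower at 4-weeks, and 2 were higher and 3 lower at 12-weeks, with medians of 0.11 and 0.05. All genes gave 609 higher and 568 lower of 14861 at 4-weeks, and 843 higher and 971 lower of 14666 at 12-weeks. The smallest p-values belonged to P2ry6, a nucleotide receptor of phagocytes (log2 0.39, SE 0.10, limma adjusted p = 0.403 at 4-weeks), and to Pparg, a lipid-sensing nuclear receptor (log2 -0.51, SE 0.16, limma adjusted p = 0.315 at 12-weeks). In sham, Itgb3, the integrin beta chain that pairs with the alpha V chain, fell by 0.75 on the log2 scale from 4-weeks to 12-weeks (SE 0.16, limma adjusted p = 0.0216). Of the 28 genes of this list tested in that comparison, 0 others were called, where limma called 1.41% of all genes.

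Trem2, a lipid-sensing receptor known from lining macrophages, was called by limma with both weeks together, where it rose by 0.50 on the log2 scale (SE 0.09, limma adjusted p = 0.0252). It was measured at 3708, 3274, 4062, 3995 and 3454 normalized reads in OA and at 3299, 2378, 2374, 2595 and 2927 in sham at 4-weeks. Only sham replicate 1 reached into the OA range. At 12-weeks Trem2 had 4108, 4686, 4487 and 5878 normalized reads in OA and 3484, 2531, 2994 and 4031 in sham, without overlap. Within single weeks the adjusted p-values of Trem2 in limma were 0.403 and 0.278. That fit of both weeks called 0.394% of all genes. Trem2 was 1 of 5 further lining genes tested. In the same fit 1 of these had a positive log2 fold change and 4 had a negative one, with a median of -0.05. Within each week 2 were positive and 3 negative, with medians of -0.08 and -0.02. The other lining genes tested did not pass the test. Mfge8, a bridging protein for dying cells, had log2 fold changes of -0.16 and -0.02, and C3 had -0.19 and -0.29. Timd4 and Cldn5 were not analysed here.

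The junction genes had lower means in OA, and neither passed the test. F11r was measured at 1807, 1754, 1839, 2016 and 2069 normalized reads in OA and at 1915, 2043, 2442, 1826 and 1919 in sham at 4-weeks. The libraries overlapped, with 2 of 5 OA libraries below every sham library, and means of 1897 ± 138 (SD, n = 5) and 2029 ± 243 (SD, n = 5) (log2 -0.09, SE 0.09, limma adjusted p = 0.789). Without the shallow sham replicate 3, the highest of all, the log2 fold change was -0.02. At 12-weeks F11r had 2013, 1691, 1949 and 1654 normalized reads in OA and 2012, 2133, 2431 and 2188 in sham. OA replicate 1 and sham replicate 1 were almost equal, and the other OA libraries were below every sham library. Means of F11r were 1827 ± 181 (SD, n = 4) and 2191 ± 176 (SD, n = 4), a log2 fold change of -0.26 (SE 0.09, limma adjusted p = 0.318), and of -0.21 without sham replicate 3. The CPM of F11r was 174 ± 26.3 (SD, n = 5) in sham against 159 ± 11.6 (SD, n = 5) in OA at 4-weeks, and 162 ± 14.2 (SD, n = 4) and 136 ± 13.1 (SD, n = 4) at 12-weeks, with neighbouring groups overlapping.

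Tjp1 was measured at 2469, 2508, 2597, 2666 and 3267 normalized reads in OA and at 2856, 3089, 2999, 2991 and 3031 in sham at 4-weeks. OA replicate 5 was above every sham library and the other 4 OA libraries were below every sham library. Means were 2701 ± 325 (SD, n = 5) and 2993 ± 86.1 (SD, n = 5), a log2 fold change of -0.16 (SE 0.08, limma adjusted p = 0.657), and of -0.23 without OA replicate 5. At 12-weeks Tjp1 had 3084, 2727, 3388 and 2506 normalized reads in OA and 3679, 3326, 4496 and 2911 in sham. The highest sham value was in sham replicate 3, the library with the highest endothelial markers, and the groups overlapped. Mean values of Tjp1 were 2926 ± 389 (SD, n = 4) and 3603 ± 673 (SD, n = 4), a log2 fold change of -0.29 (SE 0.14, limma adjusted p = 0.414), and of -0.18 without sham replicate 3. Within libraries the ratio of F11r to Tjp1 differed little between OA and sham, by 0.06 at 4-weeks and 0.03 at 12-weeks on the log2 scale.

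Of 26 other tight junction and polarity genes, 23 were tested at 4-weeks and 22 at 12-weeks. limma called 0 of them at either week. At an unadjusted p-value under 0.05, 1 was higher and 0 lower at 4-weeks, and 3 were higher and 2 lower at 12-weeks. All genes gave 609 higher and 568 lower of 14861 at 4-weeks, and 843 higher and 971 lower of 14666 at 12-weeks. Medians of the list were -0.04 and -0.07 beside 0.03 and -0.01 for all genes. Ocln, the membrane protein occludin, went against F11r and Tjp1. It was measured at 523, 506, 626, 536 and 535 normalized reads in OA and at 435, 351, 269, 359 and 497 in sham at 4-weeks, without overlap (log2 0.54, SE 0.14, limma adjusted p = 0.403). At 12-weeks Ocln was at 566 ± 36.2 (SD, n = 4) and 469 ± 94.6 (SD, n = 4) with overlap. Jam2 and Jam3, relatives of F11r, had log2 fold changes of -0.10 and -0.04 at 4-weeks and -0.25 and -0.20 at 12-weeks. Cdh5, the endothelial cadherin, had the smallest p-value of the list at 12-weeks (log2 -0.35, SE 0.11, limma adjusted p = 0.308).

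Across the 18 libraries, the level of Tjp1 followed that of the endothelial markers, and both junction genes ran against the macrophage markers. Each level was first expressed as its deviation from the mean of its group, so that these relations do not contain the differences between groups, and libraries were permuted within groups. Over 30 pairs of a member and a marker list, 3 had an adjusted p-value under 0.05 for Pearson's r and 1 for Spearman's rho. Tjp1 rose with the endothelial markers (r = 0.73, permutation p = 0.000330, adjusted p = 0.00990, rho = 0.70, permutation p = 0.000850, adjusted p = 0.0255). Without the 2 libraries with the most extreme endothelial levels, OA and sham replicate 3 of 12-weeks, r was 0.50. Within weeks it was 0.26 over 10 libraries at 4-weeks and 0.91 over 8 libraries at 12-weeks, so the relation rested mostly on the 12-week libraries. Tjp1 and the macrophage markers gave r = -0.84 (permutation p = 0.00273, adjusted p = 0.0369, rho = -0.67, permutation p = 0.0141, adjusted p = 0.106), with -0.68 without the 2 most extreme libraries, -0.60 at 4-weeks and -0.94 at 12-weeks.

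For F11r, r was -0.67 with the macrophage markers (permutation p = 0.00369, adjusted p = 0.0369, rho = -0.56, permutation p = 0.0316, adjusted p = 0.158), -0.58 without the 2 most extreme libraries, -0.66 at 4-weeks and -0.72 at 12-weeks. With the endothelial markers r was 0.63 (permutation p = 0.0162, adjusted p = 0.0971, rho = 0.68, permutation p = 0.0123, adjusted p = 0.106), with 0.55 without the 2 most extreme libraries, 0.47 at 4-weeks and 0.81 at 12-weeks. For Mertk, the macrophage markers gave a positive r that missed the threshold (r = 0.63, permutation p = 0.00686, adjusted p = 0.0514, rho = 0.62, permutation p = 0.00966, adjusted p = 0.106), with 0.60 without the 2 most extreme libraries, 0.87 at 4-weeks and 0.48 at 12-weeks. Vsig4 had an r of 0.12 with the endothelial and 0.19 with the macrophage markers. Cx3cr1 had r = -0.40 with the endothelial markers (adjusted permutation p = 0.412, rho = -0.51), with -0.10 at 4-weeks and -0.64 at 12-weeks. The relation at 12-weeks was not particular to the endothelial markers. With the synovial fibroblast markers, Tjp1 had r = 0.42 (adjusted permutation p = 0.185), with 0.03 at 4-weeks and 0.88 at 12-weeks. F11r had r = 0.06 with these markers (adjusted permutation p = 0.922), with -0.36 at 4-weeks and 0.85 at 12-weeks. All levels in a library share its size factor and its mixture of cells.

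**Figure D3:**
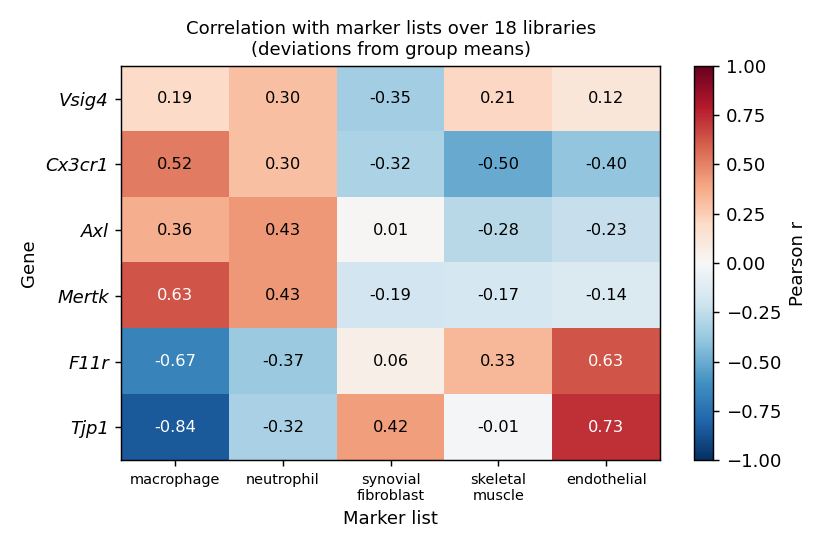
Pearson correlation (colour scale from -1 to 1, values printed) between the level of each of the 6 genes and the mean level of 5 marker lists over 18 libraries, both as log2 deviations from group means. Tjp1 and F11r show r of 0.73 and 0.63 with the endothelial markers and -0.84 and -0.67 with the macrophage markers. With the endothelial markers, Vsig4, Cx3cr1, Axl and Mertk show r of 0.12, -0.40, -0.23 and -0.14.

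The endothelial markers themselves did not pass a test between OA and sham. Their mean log2 level differed by -0.05 at 4-weeks (exact permutation p = 0.532, n = 5 per group) and by -0.16 at 12-weeks (exact permutation p = 0.429, n = 4 per group). The 12-week sham mean included replicate 3 at 11.42, where the other sham libraries had 10.93 to 10.99 and the OA libraries 10.75 to 11.19. The 12-week values relative to a marker list include this library too. Relative to the endothelial markers within each library, the OA difference of F11r was -0.04 at 4-weeks and -0.11 at 12-weeks, and that of Tjp1 was -0.11 and -0.13. The differences without this reference were -0.09 and -0.26 for F11r and -0.16 and -0.29 for Tjp1. Relative to the macrophage markers they were larger, at -0.21 and -0.39 for F11r and -0.28 and -0.42 for Tjp1. Relative to the fibroblast markers they were -0.38 and -0.60 for F11r and -0.44 and -0.62 for Tjp1. OA and sham did not overlap at 12-weeks for either gene relative to the fibroblast markers, and overlapped in the other relative values. The fibroblast marker level was itself 0.33 higher in OA at 12-weeks. The share of all genes that separate on this scale was not computed, so the separation is not read as particular to these genes. Over the same libraries the macrophage marker level was higher in OA by 0.12 at 4-weeks (exact permutation p = 0.135, n = 5 per group) and by 0.13 at 12-weeks (exact permutation p = 0.514, n = 4 per group). At 12-weeks sham replicate 3 had the lowest macrophage level, 13.01, where the other sham libraries had 13.31 to 13.55 and the OA libraries 13.31 to 13.56. The part of endothelial cells in the junction gene values was not tested.

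**Figure D4:**
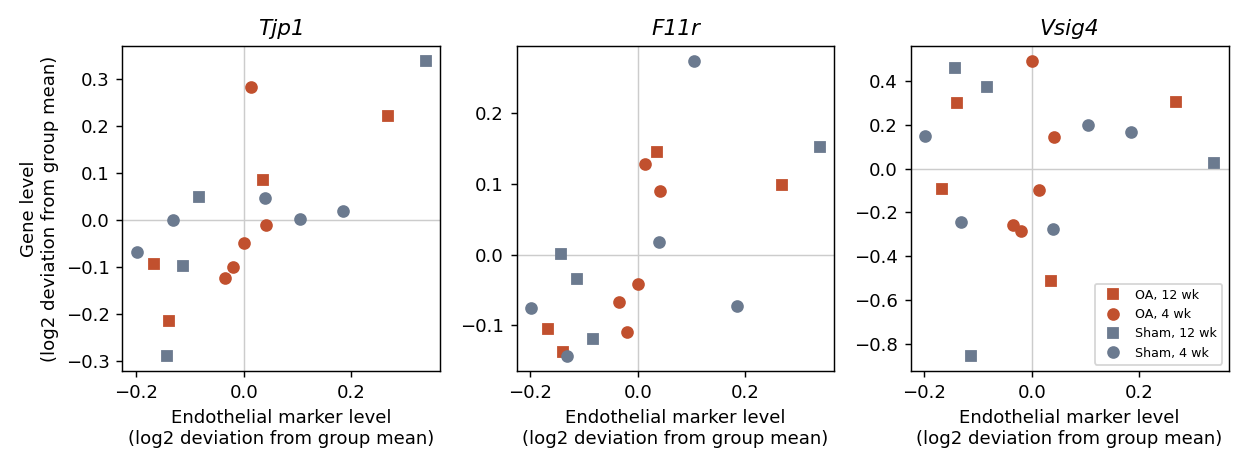
Log2 deviation from the group mean of Tjp1, F11r and Vsig4 (vertical axes) against that of the mean endothelial marker level (horizontal axes) in 18 libraries; circles are 4 weeks, squares are 12 weeks, grey is sham and orange is OA. Tjp1 and F11r climb with the endothelial level (r of 0.73 and 0.63), while Vsig4 does not (r of 0.12), and the 2 squares at the far right are replicate 3 of sham and of OA at 12 weeks.

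The members were also compared in pairs, given here as a description of 18 libraries that share size factors and cell mixtures. Cx3cr1 and Axl had r = 0.76, Vsig4 and Axl 0.59, Axl and Mertk 0.59, and F11r and Tjp1 0.56. Cx3cr1 and F11r had r = -0.75, and F11r and Axl -0.61. Among 14314 genes, those with the levels most like F11r were the endothelial sialomucin Emcn (r = 0.95), the laminin-binding adhesion molecule Bcam (r = 0.95) and Upp1, a uridine phosphorylase (r = 0.94). The nearest to Tjp1 were AABR07007032.1 (r = 0.93), the TGF-beta co-receptor Tgfbr3 (r = 0.92) and the angiopoietin receptor Tek (r = 0.92). Emcn and Tek are both in the endothelial marker list.

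The genes with the levels most like the receptors were of other kinds. Nearest to Vsig4 were the fructose transporter Slc2a5 (r = 0.90) and Pacsin1 (r = 0.89). Those nearest to Cx3cr1 were Gramd1b (r = 0.91), RGD1561662 (r = 0.91) and the hexokinase gene Hk2 (r = 0.89). Axl was most like Mical2 (r = 0.88), Gramd1b (r = 0.88) and the metalloreductase Steap3 (r = 0.87), so Gramd1b appeared for both Cx3cr1 and Axl. Mertk was most like Xdh, the xanthine dehydrogenase gene (r = 0.85), Xylt2 (r = 0.85) and LOC685048 (r = 0.84).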

How the data were processed

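RNA of CD11b/c-enriched synovial cells was sequenced in 18 libraries, grouped by surgery and week from the sample labels. The authors took read quality metrics with fastp 0.20.0, aligned reads with STAR 2.7.6a, dropped duplicate alignments (Sambamba), ran featureCounts 2.0.0 for counts per gene and normalized these with DESeq2 1.24.0 (versions from the submitters' processing notes). Their methods give 5 replicates per condition at each week, whereas the labels, followed here, give 4 OA and 4 sham at 12-weeks. The strand setting is not given in the sources used here. The authors deposited normalized reads, a signal in which 100% of values were whole multiples of a single read (within 0.01 reads), so the counts behind the deposited values were recovered. The authors' deposited log2 fold changes, p-values and Wald score were not used.

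The members and gene lists were chosen with earlier results of these data known. Genes averaging 10 normalized reads or more were fitted in limma 3.58.1 (R 4.3.3) on the log2(value + 1) scale, where low genes show too small a fold change, with Benjamini-Hochberg adjustment over all genes tested. Fits across weeks used log2 CPM of the recovered reads with TMM scaling and a prior count of 2. edgeR 4.0.16 (quasi-likelihood test) and DESeq2 1.42.0 were alternatives on the recovered counts, beside other pseudocounts, filters and scalings, sample quality weights, a replicate block and leaving out each library. Scaling to the macrophage markers, edgeR with the block and DESeq2 without a fold-change minimum were added after the data were seen. Marker lists were compared by exact permutation tests (two-sided), and correlations by 100000 permutations within groups. Genes named are the members, preset genes of each list, genes of a list that limma called or that had its smallest p-value in a week, and the 3 genes most like each member. Some genes that this rule names are not reported here. Each fit was first tested on simulated data. Replicates differed beyond sampling noise (chi-square per degree of freedom from 5.84 to 38.8 over 32 pairs), so each library counted as a separate sample. p-values measure the spread between pools. Promoter windows came from RefSeq (GRCr8), where 6 of 6 members were found. Python 3.11.15, numpy 2.4.6, pandas 2.3.3, scipy 1.17.1 and matplotlib 3.10.9 were used.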

Additional observations from a re-analysis of the deposited data

Results flagged for a closer look

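Of 44 groups of 4 or 5 values examined, 2 held a library far from the others, and chance alone gives about 1 in 20. Tjp1 in OA replicate 5 at 4-weeks had 3267 normalized reads, where the other OA libraries had 2469 to 2666. The mean log2 level of the endothelial markers was 11.42 in sham replicate 3 at 12-weeks, where the other sham libraries were at 10.93 to 10.99.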

How the results depend on the processing

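Over all fits other than DESeq2, including each left-out library, 0 members were called in OA against sham within a week. DESeq2 called 1 at 4-weeks (Vsig4) and 1 at 12-weeks (Cx3cr1), the same numbers without a fold-change minimum. With both weeks together the count of 1 became 2 with a mean of at least 50 reads and 2 with the replicate block, when Vsig4 also passed (limma adjusted p = 0.0438), and it ranged from 0 to 2 when a library was left out. Counts between weeks ranged from 0 to 1 in sham and from 0 to 1 in OA when a library was left out. The cause of these changes was not tested. The sign of Mertk at 4-weeks turned with sample quality weights (-0.0019) and with scaling to the macrophage markers (-0.056), and that of Cx3cr1 between weeks in sham with a mean of at least 50 reads (-0.0016) and in edgeR (-0.0087). When a library was left out, log2 fold changes that turned sign ranged from -0.021 to 0.14 for Mertk at 4-weeks. For the difference between weeks they ranged from -0.39 to 0.064 for Vsig4, from -0.044 to 0.26 for Cx3cr1 and from -0.20 to 0.014 for Tjp1. Between weeks they ranged from -0.12 to 0.17 for Cx3cr1 and from -0.077 to 0.14 for Tjp1 in sham, and from -0.018 to 0.25 and from -0.13 to 0.0058 in OA. No other member turned in OA against sham. Same-numbered OA and sham libraries were pools of different rats, and their deviations correlated between -0.13 and 0.08 at 4-weeks and between -0.03 and 0.30 at 12-weeks, so the numbers were not taken as pairs.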

Other observations

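At 12-weeks the skeletal muscle markers had a mean log2 level 0.42 higher in OA than in sham (exact permutation p = 0.0286, n = 4 per group, the lowest value possible at this size, and 0.371 after adjustment over 13 marker lists). Of the markers tested, 8 had a positive log2 fold change and 1 a negative one, where all genes gave 6961 and 7705. At 4-weeks the mean log2 level differed the other way, by -0.12 (exact permutation p = 0.714, n = 5 per group).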
